A study of Mus musculus with 219 samples.

Results

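The cytosolic ribosomal protein genes are the genes whose products, together with ribosomal RNA, form the small and large subunits of the ribosome that translates nuclear mRNA. They were chosen by symbol: Rpl or Rps followed by a number and at most a short suffix, with Rplp0, Rplp1, Rplp2 and Rpsa added, and with pseudogenes and the kinase genes named Rps6k left out. The rule gave 83 of the 32285 genes in the count tables, 32 for the small and 51 for the large subunit, and it used no measured value. The samples were mouse embryos made by injecting a single sperm head from CD1 males into B6C3F1 oocytes (intracytoplasmic sperm injection, ICSI), either on the side opposite the meiotic spindle (contralateral), beside it (ipsilateral) or at a position between these (equatorial). Single blastomeres of 2-cell embryos were sequenced in sister pairs, as were single blastocysts, which were either twins (each grown from 1 of the blastomeres of an embryo bisected at the 2-cell stage and cultured singly) or intact (grown from an embryo that was not bisected). The embryos compared were 55 at the 2-cell stage (21 contralateral, 21 ipsilateral, 13 equatorial), 19 pairs of twin blastocysts (6, 7 and 6) and 31 intact blastocysts (11, 8 and 12). All groups shared the same cross and the same injection procedure, and none was fertilised without injection. The counts of sister blastomeres, or of twins, were added so that the embryo was the replicate. The cDNA was primed on the poly(A) tail and was not calibrated against added RNA, so each value is a share of the polyadenylated RNA captured from an embryo, and fewer cells of a type and less RNA per cell cannot be told apart.

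As background, ribosomal protein mRNAs are among the most abundant mRNAs of growing cells, and their translation is controlled together. Most of them start with a cytidine followed by a run of pyrimidines, the 5′ terminal oligopyrimidine (TOP) motif, through which mTOR signalling and the binding protein Larp1 hold them back or release them for translation. The fully grown mouse oocyte is transcriptionally silent and lives on stored mRNA, part of which is lost after fertilisation while the embryonic genome becomes active, and ribosome production rises as the embryo grows towards the blastocyst.

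The starts of some members are shown because the TOP run is the feature these genes are known by, and because they place members that followed the bulk of the group beside paralogs that did not. RefSeq start sites on GRCm38.p6 were matched for 63 of the 83 members. Each line gives 30 bases of the coding strand, 15 before and 15 from the start site, and the capitals mark the longest unbroken run of C and T that begins with C from up to 10 bases before to 5 bases after the start and reaches to within 5 bases of it. A run that ends earlier is not marked, such as the one of 5 bases in the line of Rpl10l. A run that begins more than 10 bases before the start is not marked or counted either. The line of Rps27l holds such a run, and that of Rpl7a, not shown, crosses the start. The first 4, Rps18, Rps27, Rpl38 and Rpl12, encode a protein of the small-subunit head, a zinc-finger protein of the small subunit, a small protein of the large subunit and a protein at the base of the stalk of the large subunit. The last 3, Rps27l, Rpl10l and Rpl39l, are paralogs of Rps27, Rpl10 and Rpl39. Rps4l, the paralog of Rps4x, was not among the genes of the tables. All 7 were picked after their values had been seen, so they do not show whether a run goes with the changes. The run of the paralog Rpl39l, of 7 bases, is longer than that of Rpl12, of 6.
Rps18 (chr17:33955651-33955680, minus strand): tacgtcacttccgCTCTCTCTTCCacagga
Rps27 (chr3:90213634-90213663, minus strand): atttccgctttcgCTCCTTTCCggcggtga
Rpl38 (chr11:114668565-114668594, plus strand): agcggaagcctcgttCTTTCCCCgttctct
Rpl12 (chr2:32961697-32961726, plus strand): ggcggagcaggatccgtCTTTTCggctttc
Rps27l (chr9:66946071-66946100, plus strand): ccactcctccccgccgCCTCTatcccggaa
Rpl10l (chr12:66284387-66284416, minus strand): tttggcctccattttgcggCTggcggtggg
Rpl39l (chr16:10170213-10170242, plus strand): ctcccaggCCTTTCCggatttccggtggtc
A run of at least 6 bases stood at the start of 44.4% of the 63 members and of 16.6% of 27025 genes in the same table, and a run of at least 10 at that of 17.5% and 2.98%. These shares describe the letters around an annotated start, which may lie some bases from the start used in the embryo. Between intact blastocysts and 2-cell embryos the 28 members with a run of at least 6 had a median log2 fold change of 2.40, and 27 were called higher. The 35 with a shorter run had 2.32, and 32 were called higher. Between twin and intact blastocysts the medians were -0.80 (28 members) and -0.66 (34 members). Against equatorial 2-cell embryos they were -0.09 and -0.01 after contralateral and -0.17 and -0.03 after ipsilateral ICSI. The split by run was not tested.

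The total count per library was 360474 to 2100561 in blastomeres, 713410 to 2161062 in twins and 234099 to 1254428 in intact blastocysts, so that intact blastocysts were the shallowest libraries and, unlike a twin pair, entered as single libraries. The stage labels were checked against marker lists. The summed oocyte markers had a median of 4654 CPM (counts of a gene scaled to a common total per embryo) in 2-cell embryos, 555 in twins and 55.5 in intact blastocysts, and the summed trophectoderm markers 133, 5012 and 5605. Markers of cumulus cells, which surround the oocyte, summed to at most 55.5 CPM in a 2-cell embryo. The equatorial 2-cell embryos 31 and 67, the first from plate 1 and the second from plate 2, stood apart in X-linked members. In their 4 libraries 2 of the 4 X-linked members lay below all other libraries in both sisters: Rps4x was at 0 to 6.53 CPM against 15.98 to 196 in all other libraries, and Rpl39 at 5.80 to 10.1 against 15.7 to 173. The ranges of the other X-linked members overlapped, with Rpl10 at 3.87 to 60.9 against 23.5 to 193 and Rpl36a at 0 to 17.4 against 1.84 to 122.6. All X-linked genes took 1.60% to 2.41% of their counts against 2.44% to 4.19%, whereas the autosomal members took 0.962% to 1.13%, within the 0.585% to 1.46% of the other libraries. The calls between ICSI sites and the embryo effect in blastomeres are therefore also given without them, a choice made after the data had been seen. The stage comparison, the shares, the levels and the sister differences include them.

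The 83 members took a larger share of the counts at the blastocyst than at the 2-cell stage. They made up 1.04% ± 0.136 of the counts in 2-cell embryos (SD, n = 55; lowest 0.661%, median 1.03%, highest 1.32%). In twins the share was 3.82% ± 0.309 (n = 19; 3.27%, 3.85% and 4.65%), and in intact blastocysts 5.71% ± 1.65 (n = 31; 3.02%, 5.53% and 9.98%). The lowest blastocyst thus lay above the highest 2-cell embryo, while twins and intact blastocysts overlapped. On the TPM scale the shares were 2.24% ± 0.288, 6.71% ± 0.463 and 10.3% ± 2.99. This scale divides counts by the joined length of all annotated exons of a gene, which can exceed that of the transcript expressed. The small-subunit members made up 0.447% of the counts in 2-cell embryos and 2.46% in intact blastocysts, and the large-subunit members 0.588% and 3.25%, so the difference was present in both subunits. Among 2-cell embryos the share was 1.03% ± 0.137 after contralateral, 1.01% ± 0.140 after ipsilateral and 1.09% ± 0.121 after equatorial ICSI, differences smaller than the SD within a group. On the TPM scale it was 2.18% ± 0.249, 2.16% ± 0.282 and 2.44% ± 0.278, and the equatorial mean lay about 1 SD above the others. These summed shares are descriptions without a test.

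**Figure D1:**
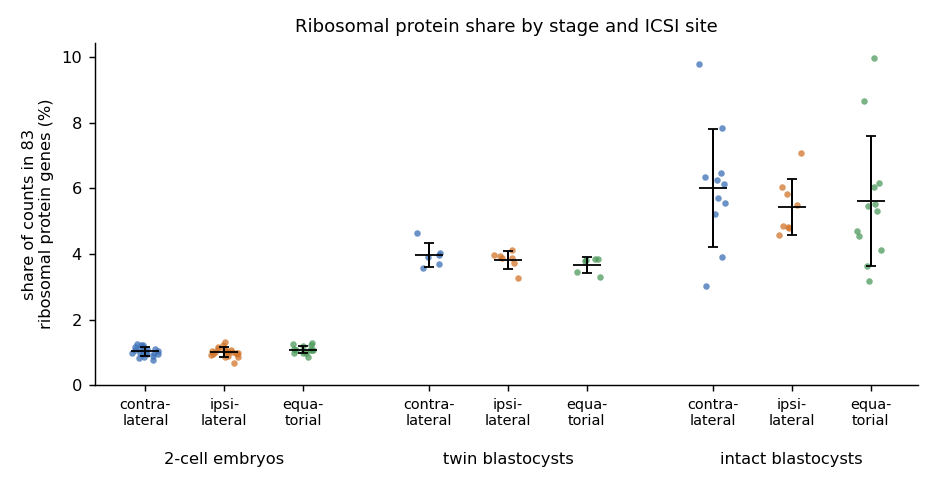
Share of the counts of an embryo (%, linear axis from 0) taken by the 83 cytosolic ribosomal protein genes, by kind of embryo and ICSI site. Each point is an embryo and the black bars are mean ± SD; 2-cell embryos lie at 0.661% to 1.32%, twin blastocysts at 3.27% to 4.65% and intact blastocysts spread from 3.02% to 9.98%.

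The spread among intact blastocysts moved with the size of the library. Across the 31 intact blastocysts the share had a Pearson correlation of -0.80 and a Spearman correlation of -0.78 with the total count, and Pearson's r was -0.75 without the 2 embryos farthest from the median total. Within ICSI sites it was -0.89 (contralateral, n = 11), -0.77 (equatorial, n = 12; -0.27 without the 2 farthest) and -0.76 (ipsilateral, n = 8). In 2-cell embryos it was -0.13 (n = 55), and in twins -0.60 (n = 19). The 14 intact blastocysts with at least 713410 counts, the lowest total of a twin library, had a share of 4.56% ± 0.900 (SD), and the 17 with fewer counts 6.66% ± 1.54. The shallower intact libraries therefore carried the highest shares, and the size of a library and the amount of RNA in its embryo cannot be told apart here. The stage comparison and that of twin with intact blastocysts are given below also with these 14 deeper intact blastocysts alone and with the total count per library as a covariate, both chosen after this relation had been seen; the comparisons of ICSI sites among intact blastocysts were not run in these ways.

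**Figure D2:**
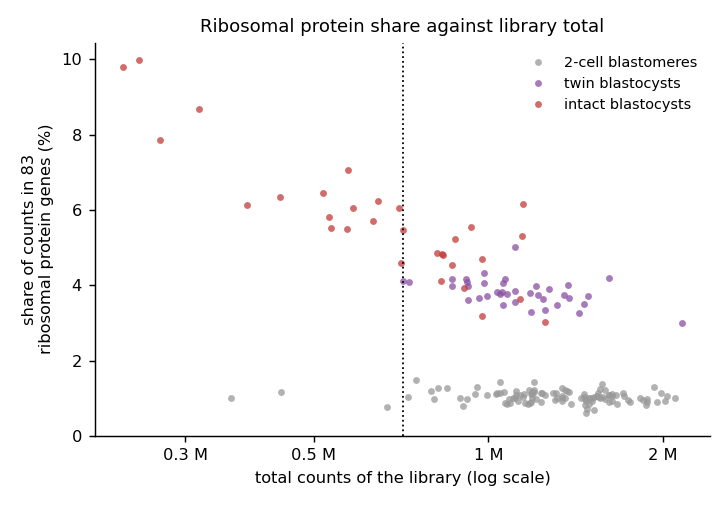
Share of counts (%) of the 83 members against the total count per library on a log axis, with each point a single library: a blastomere, a twin or an intact blastocyst, in different colours. The dotted line is the lowest twin total, 713410 counts; intact blastocysts left of it reach 9.98%, and those right of it lie between 3.02% and 6.16%.

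Levels within the group differed widely, and their order on the TPM scale was similar between stages. On the TPM scale the median member was at 186 in 2-cell embryos, 632 in twins and 968 in intact blastocysts. The Spearman correlation of the mean levels over the 83 members was 0.79 between 2-cell embryos and intact blastocysts and 0.96 between twins and intact blastocysts. This is a description over genes, which are not independent. Each gene was divided by the same length at every stage, which can by itself raise the correlation, and none was computed without it. In 2-cell embryos the highest mean TPM belonged to Rps27l, a p53-inducible paralog of Rps27, with 2122 ± 388 (SD, n = 55), followed by the stalk genes Rplp1 with 1226 ± 496 and Rplp0 with 1052 ± 147. Rpl41, which encodes a very small protein of the large subunit, was also among the 5 highest at 694 ± 138. The SD of Rplp1 covered the gap to Rplp0. The lowest were Rpl3l with 18.2 ± 18.2, Rpl22l1 with 18.4 ± 10.5, Rpl7l1 with 41.5 ± 22.5, Rps18 with 42.6 ± 17.1 and Rpl3 with 50.5 ± 18.5, so 3 of the 5 lowest were paralogs.

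In intact blastocysts the order at the top had changed. Rplp1 led with a mean TPM of 6326 ± 3596 (SD, n = 31), ahead of Rpl36 with 4360 ± 1634, Rpl38 with 3388 ± 1949, Rps15 with 3073 ± 844 and Rpl19 with 2798 ± 630. Each of these 5 overlapped the next within 1 SD. Rps27l had 2346 ± 387, close to its level in 2-cell embryos. The lowest members with a count in at least 50% of the intact blastocysts were Rpl7l1 with 130 ± 38.5, Rpl22l1 with 162 ± 76.5, Rpl10l with 162 ± 98.96, Rpl39l with 213 ± 162 and Rps15a with 256 ± 123.8. Neighbours in this low range overlapped within 1 SD, and 4 of the 5 were paralogs. The order by TPM at either stage also depends on the exon lengths used, such as 6270 bases for Rps15a and 383 for Rpl36.

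**Figure D3:**
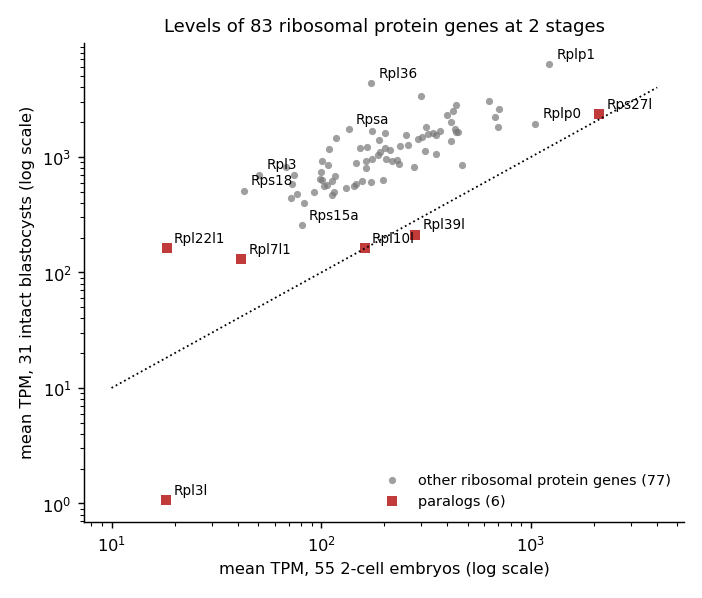
Mean TPM of each of the 83 members in 2-cell embryos (x, log axis) against intact blastocysts (y, log axis), with the line of equality and the named members labelled. Paralogs are squares. Of the labelled paralogs, Rps27l (2122 and 2346) and Rpl10l (161 and 162) lie next to the line and Rpl39l (280 and 213) and Rpl3l (18.2 and 1.065) below it.

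The comparison of intact blastocysts with 2-cell embryos asked how the members changed over development, and it was fitted to the counts of all genes with ICSI site and plate as terms. Of the 83 members, 79 were higher and 2 lower in intact blastocysts at an adjusted p under 0.05 (edgeR quasi-likelihood test, Benjamini-Hochberg adjustment). Over all 12645 genes tested, 77.4% were called, 32.7% as higher and 44.7% as lower, and the median log2 fold change was -0.32, against 2.43 (a 5.38-fold rise) over the members. With totals that left out the ribosomal protein genes, and without the TMM scaling used otherwise, these medians were -0.04 and 2.71. The parts of these changes in the shift were not tested separately. All blastocysts came from plate 2, and within plate 2 alone 79 of the 82 members tested were higher and 0 lower, with a median of 2.40. The share of all genes called within plate 2 alone is not given here. With the 14 deeper intact blastocysts alone 79 were higher and 1 lower (median 1.91), against 72.2% of all genes called and an all-gene median of -0.51, and with the total count per library as a covariate 78 were higher and 1 lower (1.86), against 71.1% and -0.18. The rise over the members was thus smaller in both.

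The largest rise was that of Rpl36, which encodes a small protein of the large subunit. Rpl36 had 5.85, 17.5 and 52.7 CPM in 2-cell embryos (lowest, median and highest of 55) and 234, 526.1 and 1173 in intact blastocysts (of 31), a log2 fold change of 4.84 (SE 0.26; 28.6-fold; edgeR adjusted p = 1.6e-31). No 2-cell embryo reached the lowest blastocyst. Rps18 followed with 10.2, 31.4 and 70.3 CPM against 227, 430 and 678, a 13.9-fold rise (SE 0.22 on the log2 scale). Rpsa, whose product sits on the small subunit and is also known as a laminin receptor, had 26.6, 120.9 and 314 CPM against 752, 1693 and 3790 (3.77, SE 0.24). Rpl38, known from a mouse mutant with altered patterning of the axial skeleton, had 5.42, 51.8 and 101.2 CPM against 259, 488 and 1677 (3.76, SE 0.30). Rpl14, of the large subunit, had 18.4, 53.4 and 120 CPM against 351, 861 and 1559 (3.71, SE 0.24). None of these 4 genes had overlapping ranges between the stages. They and Rpl36 were named for the size of their changes, and ranges were not compared over all genes. The smallest adjusted p were those of Rpl13 (log2 fold change 3.01, SE 0.15, edgeR adjusted p = 1.2e-34), Rpl3 (3.70, SE 0.19, adjusted p = 6.2e-33) and Rpl32 (2.65, SE 0.14, adjusted p = 8.5e-32), all of the large subunit. The stalk, which recruits the translation factors, held the smallest rises outside the paralogs: Rplp0 rose by a log2 fold change of 0.90 (SE 0.10) and Rplp2 by 0.91 (SE 0.15), whereas Rplp1 rose by 2.48 (SE 0.22).

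The 6 paralogs behaved unlike each other. The other 77 members were all higher in intact blastocysts, with log2 fold changes of 0.90 to 4.84, while of the paralogs 2 were higher, 2 lower and 2 not called. Rpl22l1 rose with a log2 fold change of 2.92 (SE 0.34), beside 2.15 (SE 0.22) for Rpl22. Rpl7l1, a nucleolar relative of Rpl7, rose by 1.52 (SE 0.30), beside 3.13 (SE 0.22) for Rpl7. Rpl3l, known from striated muscle, had 1291 counts in 48 of the 55 2-cell embryos, 5 counts in 2 of the 31 intact blastocysts and 3 counts in 2 of the 19 twin pairs, and was called lower in intact blastocysts (edgeR adjusted p = 8.1e-09), while Rpl3 rose. Rpl39l, best known from the testis, had 17.1, 70.5 and 116.8 CPM in 2-cell embryos and 0, 48.1 and 200 in intact blastocysts, with a log2 fold change of -0.58 (SE 0.26, edgeR adjusted p = 0.035), beside 2.61 (SE 0.24) for Rpl39. That call was lost under 6 of the alternatives, among them the 14 deeper blastocysts (adjusted p = 0.099). Rpl10l, a retrogene also best known from the testis, had 11.5, 47.5 and 132 CPM in 2-cell embryos and 0, 58.5 and 144 in intact blastocysts (log2 fold change 0.19, SE 0.32, adjusted p = 0.60), beside 2.07 (SE 0.19) for Rpl10. Rps27l had 373, 495 and 956 CPM against 418, 680 and 947 (0.20, SE 0.11, edgeR adjusted p = 0.094), beside 3.61 (SE 0.25) for Rps27. Rps27l was called higher under 4 of the alternatives, such as 0.47 without the ribosomal protein genes in the totals and without TMM scaling.

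Other genes of the pathway, from lists chosen by function, changed less uniformly over the same interval. Of 40 genes for ribosome biogenesis and RNA polymerase I, 19 were higher and 8 lower (median log2 fold change 0.43), with Npm1, a nucleolar chaperone, at 1.03 (SE 0.12) and Taf1a, of the polymerase I selectivity factor, at -2.86 (SE 0.29). Of 19 other mRNAs with a TOP start, 16 were higher and 1 lower (1.69), led by the elongation factors Eef1a1 at 2.19 (SE 0.11) and Eef2 at 2.21 (SE 0.13). Of 14 regulators of TOP translation and ribosome production, 8 were higher and 3 lower (1.105), with the translational repressor Eif4ebp1 at 3.75 (SE 0.33) and Larp1 at 3.38 (SE 0.35). Fau and Rpl36al, which encode ribosomal proteins but lie outside the rule, were higher (1.85 and 1.71). Of 78 mitochondrial ribosomal protein genes, which serve a separate ribosome, 56 were higher and 7 lower (1.51), with Mrpl12 at 1.94 (SE 0.18) and Mrpl19 at 4.16 (SE 0.41). Among the cytosolic members the share called higher was thus 79 of 83, beside 32.7% of all genes tested.

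The ICSI site was compared in 2-cell embryos because the position of the sperm was the variable imposed in this experiment. Contralateral and equatorial embryos differed in 9 of 83 members, 2 higher and 7 lower after contralateral ICSI, which is 10.8% against 13.4% of all 13141 genes tested (7.62% higher, 5.74% lower). Ipsilateral and equatorial embryos differed in 10 of 83, all lower after ipsilateral ICSI, which is 12.05% against 6.62% of all genes (3.45% higher, 3.17% lower). Median log2 fold changes over the members were -0.04 and -0.07, beside 0.02 over all genes in either comparison. The share of members called in either direction was thus below that of all genes in the first comparison and above it in the second. The share called lower was above that of all genes in both, by a smaller margin in the first. The 2 comparisons share the 13 equatorial embryos. Equatorial embryos also had the smallest libraries, with a mean total of 2293032 counts per embryo against 2575532 (contralateral) and 3022462 (ipsilateral), and the calls are therefore also given with the total count as a covariate.

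Rplp1, one of the acidic stalk proteins, was lower after ICSI at either of the other sites than after equatorial ICSI. It had 158, 253 and 393 CPM in equatorial embryos (lowest, median and highest), 81.2, 144 and 305 in contralateral and 119.3, 149 and 243 in ipsilateral embryos. The log2 fold change was -0.72 (SE 0.14, edgeR adjusted p = 2.1e-04) for contralateral and -0.63 (SE 0.14, adjusted p = 0.0031) for ipsilateral against equatorial ICSI, and the ranges overlapped in both. With the total count as a covariate the ipsilateral call was lost (adjusted p = 0.077) and the contralateral one was not. Rpsa had 142, 172 and 314 CPM in equatorial, 26.6, 99.5 and 201 in contralateral and 36.9, 114.8 and 204 in ipsilateral embryos. The lowest equatorial embryo lay above the median of either other group, and the log2 fold changes were -0.87 (SE 0.18, adjusted p = 6.0e-04) and -0.71 (SE 0.19, adjusted p = 0.011), of which the ipsilateral one lost its call with the covariate (adjusted p = 0.10). Rpl12, at the base of the stalk, had 74.1, 99.97 and 143 CPM in equatorial and 20.2, 55.997 and 91.1 in contralateral embryos, with a log2 fold change of -0.83 (SE 0.18, adjusted p = 7.9e-04).

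Rps12, of the beak of the small subunit, had 87.3, 144 and 214 CPM in equatorial and 56.9, 96.8 and 144 in ipsilateral embryos, a log2 fold change of -0.60 (SE 0.13, edgeR adjusted p = 0.0020). Rps24, of the small subunit, had 130, 185 and 258 CPM against 95.6, 142 and 194 (-0.44, SE 0.11, adjusted p = 0.011), a call that was lost with the total count as a covariate (adjusted p = 0.10). The ranges of both genes overlapped between the groups. In the other direction, Rps27l had 373, 438 and 665 CPM in equatorial and 394, 593 and 956 in contralateral embryos (0.39, SE 0.11, adjusted p = 0.0070), and Rpl34, of the large subunit, 42.6, 91.6 and 135 against 72.3, 111.1 and 182 (0.38, SE 0.14, adjusted p = 0.049). Rpl34 lost its call under 5 alternatives and Rps27l under 1, that of embryos with at most 2% mitochondrial counts (adjusted p = 0.088). The remaining calls were those of Rps12, Rpl6, Rpl13a and Rpl8, lower after contralateral ICSI, and, among others, of Rpsa, Rpl18, Rps10, Rpl12, Rpl8 and Rpl13a, lower after ipsilateral ICSI.

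With the log2 total count as a covariate, 7 members remained called between contralateral and equatorial embryos but 1 between ipsilateral and equatorial embryos, which was Rps12 (log2 fold change -0.51, SE 0.14, edgeR adjusted p = 0.047). The calls over all genes also fell, to 11.3% and 1.39%. In embryos with at most 2% mitochondrial counts 8 and 5 members were called, beside 8.48% and 4.55% of all genes. Without embryos 31 and 67 these were 9 and 11 members, beside 15.3% and 9.14% of all genes. Between contralateral and ipsilateral embryos 0 of 83 members and 0.0% of the 13141 genes were called by edgeR or DESeq2, and 4 members (563 genes, 4.28%) had an unadjusted p under 0.05. The smallest of these were Rps27l (log2 fold change 0.21, SE 0.09, unadjusted p = 0.028), Rpl36 (0.57, SE 0.25, p = 0.029) and Rps15a (0.24, SE 0.11, p = 0.038), each higher after contralateral ICSI and each with an adjusted p of 1.0.

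The other lists were read in the same 2-cell comparisons. Over all genes 7.62% were higher and 5.74% lower after contralateral, and 3.45% higher and 3.17% lower after ipsilateral than after equatorial ICSI. Of 40 biogenesis genes, 2 were higher and 10 lower after contralateral than after equatorial ICSI, with Tcof1, a nucleolar factor, at -0.79 (SE 0.14) and Fbl, the rRNA methyltransferase fibrillarin, at -1.06 (SE 0.22); after ipsilateral ICSI 1 was higher and 3 lower, with Tcof1 at -0.59 (SE 0.14) and Ncl at -0.33 (SE 0.09). Of 77 mitochondrial ribosomal protein genes tested, 12 were higher and 1 lower after contralateral ICSI, with Mrpl53 at 0.74 (SE 0.16) and Mrps14 at 0.56 (SE 0.12), and 2 were higher after ipsilateral ICSI, Mrpl40 at 0.42 (SE 0.13) and Mrpl53 at 0.49 (SE 0.16). Of 19 other TOP mRNAs, 2 were higher and 3 lower after contralateral and 0 higher and 2 lower after ipsilateral ICSI, with Pabpc1, the poly(A)-binding protein, at -0.65 (SE 0.15) and -0.58 (SE 0.15). Of 13 regulators tested, 1 was higher and 2 lower after contralateral and 2 higher and 1 lower after ipsilateral ICSI. Rheb, the activator of mTOR, was higher in both, at 0.99 (SE 0.16) and 0.85 (SE 0.16). Eif4ebp2 was lower after contralateral ICSI, at -1.004 (SE 0.28), and Tsc2 was lower after ipsilateral ICSI, at -0.67 (SE 0.16). Neither Fau nor Rpl36al was called in either, and no gene of these lists was called between contralateral and ipsilateral embryos.

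In blastocysts no member was called between ICSI sites. In twins (82 members and 10995 genes tested, 0.0% called) and in intact blastocysts (82 members and 9165 genes, 0.0% called), edgeR called 0 members in each of the 6 comparisons, and DESeq2 called 0 members as well. At an unadjusted p under 0.05 there were 18 of 82 members between contralateral and equatorial twins. There was 1 between ipsilateral and equatorial twins, and there were 5 between contralateral and ipsilateral twins. The shares over all genes were 6.65%, 3.87% and 6.83%. The numbers in intact blastocysts were 1, 0 and 8 in the same order, beside 6.86%, 3.70% and 5.67% of all genes. The median log2 fold changes of the members, again in this order, were 0.15, 0.06 and 0.08 in twins and 0.09, -0.13 and 0.20 in intact blastocysts. Over all genes they were 0.009, 0.001 and 0.013 in twins and 0.005, -0.029 and 0.026 in intact blastocysts.

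Twin blastocysts, each from a single blastomere, were compared with intact blastocysts with ICSI site as a term. Of the 82 members tested, 77 were lower and 3 higher in twins, while 42.4% of all 9379 genes were called (22.5% lower, 19.9% higher). The median log2 fold change was -0.69 over the members, with quartiles of -0.87 and -0.55, and -0.02 over all genes. It was -0.79 for the 32 small-subunit and -0.65 for the 50 large-subunit members. Summed oocyte markers ranged from 330 to 683 CPM in twins and from 0 to 403 in intact blastocysts, with 9 and 8 of the 10 markers counted. Summed epiblast markers ranged from 389 to 775 and from 28.05 to 546 CPM, with all 7 counted in both. The part of these differences in the result was not tested.

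Rps12 had the most negative difference, with 258, 320 and 403 CPM in twins (lowest, median and highest of 19 pairs) and 263, 594 and 1632 in intact blastocysts (of 31), a log2 fold change of -1.31 (SE 0.19, edgeR adjusted p = 1.6e-07). Twins lay at the lower end of the range of intact blastocysts, which was far wider. Rplp1 had 400, 494 and 727 CPM against 352, 815 and 3001 (-1.21, SE 0.21, adjusted p = 8.8e-06), and Rps28, of the small subunit, 278, 329 and 422 against 297, 560 and 1576 (-1.14, SE 0.17, adjusted p = 1.6e-07). Rps21, likewise of the small subunit, had 180, 224 and 336 against 175, 366 and 1311 (-1.13, SE 0.21, adjusted p = 1.3e-05). These 3 also overlapped, with the highest intact blastocysts well above any twin. Rps27 had 185, 215 and 269 CPM against 225, 397 and 876 and the smallest adjusted p (-1.08, SE 0.13, adjusted p = 1.8e-10). Rpl32 (-0.95, SE 0.12, adjusted p = 7.4e-10) and Rpl23 (-1.001, SE 0.13, adjusted p = 3.0e-09) followed.

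The 3 members that were higher in twins were paralogs. Rpl39l had 67.6, 116.9 and 191 CPM in twins and 0, 48.1 and 200 in intact blastocysts, a log2 fold change of 0.90 (SE 0.24, edgeR adjusted p = 0.0020), whereas Rpl39 was lower (-0.97, SE 0.16). Rpl10l had 44.6, 120 and 172 CPM against 0, 58.5 and 144 (0.89, SE 0.25, adjusted p = 0.0027), whereas Rpl10 was lower (-0.35, SE 0.12). Rpl7l1 had 158, 210 and 310 CPM against 16.03, 162 and 235.1 (0.35, SE 0.13, adjusted p = 0.021), beside -0.62 (SE 0.10) for Rpl7. For each of these 3 the median twin was higher, and the ranges overlapped. Rpl22l1 and Rps27l were lower, by -0.58 (SE 0.20) and -0.33 (SE 0.09). The 2 members without a call were Rpl29 (-0.52, SE 0.26, adjusted p = 0.10) and Rps2 (-0.24, SE 0.12, adjusted p = 0.11).

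The difference from intact blastocysts was smaller against the deeper intact libraries or with the total count as a covariate. It was similar after thinning to a common total, and what in these libraries underlies this was not tested. Against the 14 deeper intact blastocysts, 64 members were lower and 3 higher with a median log2 fold change of -0.33, while 38.3% of all genes were called and their median was -0.02. These 14 libraries were as deep as single twin libraries, but the summed pairs that entered the test had 1676976 to 3095134 counts, more than any intact blastocyst. With the log2 total count per library as a covariate, 28 were lower and 2 higher (median -0.18), and the calls over all genes fell to 27.03% (median -0.05). Thinning each embryo to the lowest total left 76 lower and 2 higher (median -0.68), beside 45.4% of all genes (median -0.02). Rps27 kept its call in all 3, with log2 fold changes of -0.69 (SE 0.08) against the 14 deeper blastocysts and -0.50 (SE 0.09) with the covariate. So did Rps12, at -0.70 (SE 0.12) and -0.49 (SE 0.13). Rpl39l (0.79, SE 0.20 and 0.91, SE 0.30) and Rpl10l (0.95, SE 0.30 and 0.92, SE 0.32) remained higher in twins, whereas Rplp1 and Rps21 lost their calls with the covariate.

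**Figure D4:**
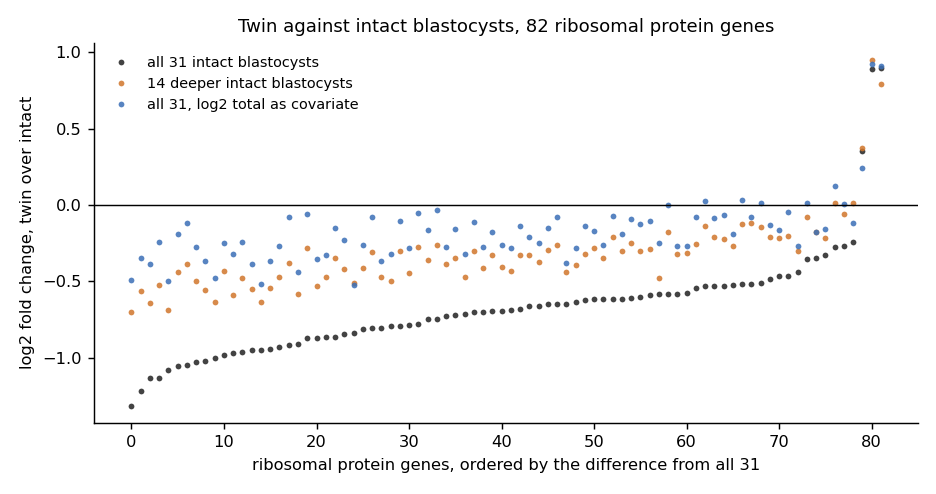
Log2 fold change of each of the 82 members tested in twin against intact blastocysts (y) under the comparison with all 31 intact blastocysts, with the 14 of at least 713410 counts and with the log2 total count as a covariate, ordered by the difference from all 31. Points below 0 are lower in twins; the median moves from -0.69 to -0.33 and -0.18 while the paralogs Rpl39l and Rpl10l lie between 0.79 and 0.95.

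Among the other genes of the pathway, the mitochondrial ribosomal protein genes moved the opposite way in twins. Over all genes tested 19.9% were higher and 22.5% lower in twins. Of 78 genes, 43 were higher and 0 lower (median log2 fold change 0.45), led by Mrpl17 at 0.99 (SE 0.12) and Mrpl2 at 0.94 (SE 0.12). This count was 44 higher and 0 lower against the 14 deeper intact blastocysts and 28 higher and 1 lower with the covariate. Of the 19 other TOP mRNAs, 1 was higher and 11 lower (-0.25), with Tpt1 at -0.88 (SE 0.11), and of the 40 biogenesis genes 8 were higher and 9 lower (-0.02), with Npm1 at -0.91 (SE 0.12). Of the 14 regulators, 3 were higher and 4 lower (-0.12). Of the 3 genes for ribosomal proteins outside the rule 2 were called lower, Fau (-0.62, SE 0.14) and Rpl36al (-0.79, SE 0.14).

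Sister blastomeres differed less from each other in most members than blastomeres of different embryos did. Over the 83 members the median absolute log2 difference was 0.36 between sisters (55 pairs) and 0.45 between blastomeres of different embryos of the same site and plate, and 69 of 83 members (83.1%) had the smaller value between sisters. Other genes of similar mean count had 0.55 and 0.63, with 76.97% of them smaller between sisters, and the share over all genes was 71.6%. In twins the values were 0.13 (19 pairs) and 0.16 over 82 members, 71 of them (86.6%) smaller between twins, and 0.18 and 0.21 in other genes of similar mean count, 71.9% of them smaller between twins, against 61.1% of all genes. The summed share of the members had an intraclass correlation of 0.61 over the 55 sister pairs and of 0.21 over the 19 twin pairs. By site it was 0.65, 0.61 and 0.50 in contralateral, ipsilateral and equatorial blastomeres but 0.44, 0.31 and -0.27 in twins, and in equatorial twins (n = 6 pairs) the median difference of the share was 0.356 percentage points within pairs and 0.339 between embryos. Among members with at least 50 counts per library, the smallest differences between sister blastomeres were those of Rplp0 (0.17) and Rps27l (0.19), and the largest were those of Rpl7l1 (1.35), Rpl10l (0.89) and Rpl14 (0.86). In twins the smallest were those of Rps25 (0.067), Rpl37 (0.069) and Rpl7a (0.073), and the largest those of Rpl10l (0.38), Rpl22l1 (0.37) and Rps12 (0.29). In blastomeres Rplp0 and Rps27l had mean counts of 707 and 704 per library, and Rpl7l1, Rpl10l and Rpl14 of 60.6, 68.2 and 78.5, and the part of counting error in this order was not tested.

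An embryo effect, the joint test that pairs of one site and plate differ from each other beyond the spread within pairs, was called in 23 of 83 members in blastomeres (27.7%, against 10.8% of all 11712 genes tested). The share over all genes is not matched to the members for mean count, here or in twins. With limma-voom in place of edgeR the share of members called was below that of all genes in blastomeres. In twins both shares were then close. The smallest adjusted p were those of Rps4x (5.7e-06), Rps27l (2.9e-05) and Rpl39 (2.3e-04) in the edgeR quasi-likelihood test. Without embryos 31 and 67, 18 members were called, beside 9.87% of all genes. Rps27l (5.9e-05) then led, whereas 5 members lost their calls in edgeR, the X-linked Rps4x (0.091), Rpl39 (0.10) and Rpl36a (0.13) and the autosomal Rpl24 (0.054) and Rpl19 (0.058). Embryos 31 and 67 had been singled out by X-linked members such as Rps4x and Rpl39, so the loss of those calls is no separate result. With all 62 complete pairs 3 members were called (Rps27l, Rpl23 and Rps4x) against 3.201% of all genes, so the count of 23 rests on the minimum of 9500 detected genes.

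In twins the embryo effect was called in 6 of 82 members (7.32%, against 0.911% of all 9773 genes): Rpl29, Rpl10, Rps18, Rps2, Rps4x and Rpl21. Of these, Rpl10 and Rps4x are X-linked. Rpl29, which encodes a peripheral protein of the large subunit, had the smallest adjusted p (2.0e-09, edgeR), and its levels fell into separate ranges that pairs shared. In 12 pairs both twins had 77.3 to 122.6 CPM, in 6 pairs both had 200.4 to 353.6, and no library lay between. The pair that was split was a contralateral one, with 112.4 and 285 CPM. The higher range held 2 contralateral, 2 ipsilateral and 3 equatorial pairs, counting the split pair, so it was found at every site. The median absolute log2 difference of Rpl29 was 0.17 between twins and 0.86 between twins of different embryos. In intact blastocysts Rpl29 ran from 56.7 to 477 CPM (median 213), with 11 embryos at or below 122.6, 17 at or above 200.4 and 3 between.

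Rps18 (edgeR adjusted p = 0.0063) showed a similar separation among twins. Both twins had at most 247.3 CPM in 11 pairs and at least 326.3 in 6 pairs, and 2 pairs were split, the equatorial embryo 112 with 196 and 387 CPM and the contralateral pair already split in Rpl29 with 233 and 366. The higher twins of these split pairs had 713410 and 728613 counts, the smallest twin libraries. Some embryos lay in the higher range of both Rps18 and Rpl29, and others in that of only 1 of them. A contralateral pair had 330 and 390 CPM of Rps18 and 310 and 275 of Rpl29. An equatorial pair had 369 and 345 CPM of Rps18 and 334 and 288 of Rpl29. Both pairs split in Rps18 also held a twin in the higher range of Rpl29. In contrast, 1 ipsilateral pair had 411 and 326 CPM of Rps18 and 88.6 and 90.5 of Rpl29. Another ipsilateral pair had 211 and 212 CPM of Rps18 and 335 and 332 of Rpl29. The pairs named are examples, and the overlap between the higher ranges was not tested. These ranges were noticed after the values had been seen and carry no test of their own.

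**Figure D5:**
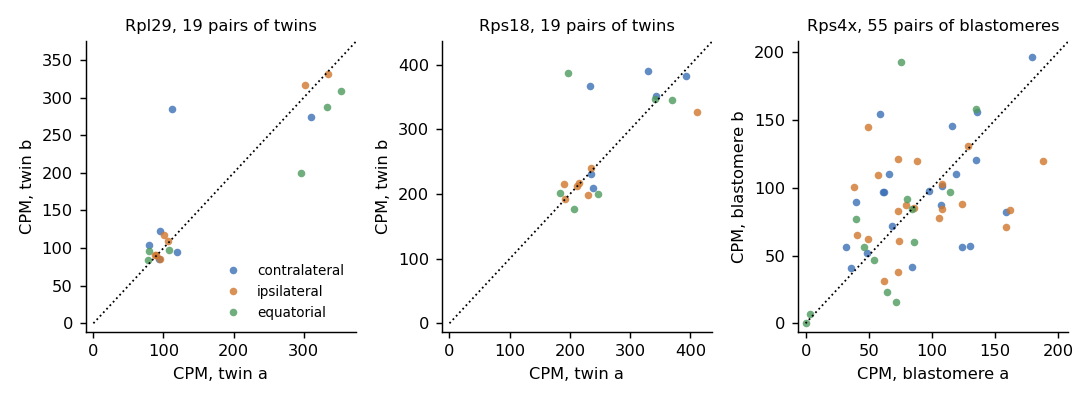
CPM of Rpl29 and Rps18 in the first and second twin of 19 pairs and of Rps4x in the first and second sister of 55 pairs of blastomeres, each point being a pair coloured by ICSI site. Rpl29 falls into 12 pairs at 77.3 to 122.6 CPM and 6 at 200.4 to 353.6 with 1 pair apart, and the pairs of embryos 31 and 67 lie at 0 to 6.53 CPM of Rps4x.

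Many ribosomal protein genes have processed pseudogenes, which bears on how their reads can be counted. When the annotated transcripts were searched for identical stretches of 100 bases, the length of the reads used, 75 of the 83 members shared at least 1 stretch with another gene and 20 shared over 50% of theirs. Rpl21 shared stretches with 40 other genes, Rpl7a and Rps2 with 38 each, Rpl29 with 28 and Rps12 with 20, and their values are uncertain to that extent. Rpl21, Rps2 and Rpl29 were among the members with an embryo effect in twins. Rps27l and Rpl10l shared none. The 20 members with the most sharing had a median log2 fold change of -0.68 between twin and intact blastocysts and the other 62 of -0.69, and 2.51 and 2.33 between intact blastocysts and 2-cell embryos. The libraries do not mark strand, so reads of genes that overlap a member on the other strand cannot be told apart from its own.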

How the data were processed

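The deposited values were whole-number counts of reads per gene and library. Per the study's methods and the labels, the authors amplified poly(A)-primed cDNA from single blastomeres and blastocysts (SMART-Seq), trimmed the reads with Trimmomatic 039, checked them with FastQC 0.12.1, and aligned and counted the first 100 bases without strand with STAR 2.7.10b on GRCm38 with a GENCODE annotation. Here libraries with fewer than 9500 (blastomeres; 7 of 125) or 4000 (blastocysts) detected genes were left out, 55 of 62 complete pairs remained, and counts were added per embryo. The blastomere libraries formed a paired-end and a single-end dataset in the paper, while those of blastocysts were single-end. Groups came from the labels. CPM are counts scaled to a common total per embryo, and TPM were computed from exon lengths. Tests used edgeR 4.0.16 in R 4.3.3: TMM scaling, removal of low-count genes, the quasi-likelihood test and Benjamini-Hochberg adjustment over all genes tested, with calls at 0.05. The terms were ICSI site and, where both plates entered, plate; the embryo effect tested embryo terms within site and plate in single libraries. DESeq2 1.42.0, limma 3.58.1, other scalings, filters and subsets were alternatives. The scripts were tested on simulated data.

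The members, the further gene lists and the tests were chosen with earlier results of these data known. Named members are, for 2-cell sites, the 3 with the smallest adjusted p in each direction; for the other comparisons, the 5 largest changes in each direction and the 3 smallest adjusted p; the 5 highest and lowest TPM among members counted in at least 50% of the embryos; paralog pairs; for sisters and twins, the 3 largest and smallest differences and the 3 smallest p; and 2 genes of each further list. Other names were chosen after their values were seen. Separate embryos are the replicates in the comparisons of groups, so their p-values weigh a difference against the spread between embryos. The embryo effect was instead tested against the spread between sisters or twins within pairs. Start-site sequences came from RefSeq on GRCm38.p6. Results of some named members are not reported here.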

Additional observations from a re-analysis of the deposited data

Results flagged for a closer look

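For 19 measures screened in groups of 4 to 10 embryos, 14 of 76 groups had an embryo that stood apart from the rest by Dixon's ratio at the 95% level; about 5% of groups would be marked by chance, and members of one embryo are not independent. The intact ipsilateral embryo 90, a library of 573605 counts with a member share of 7.07%, was the highest of 8 in 7 members: Rpl23 at 1410 CPM (others 687 to 924), Rpl36 at 682 (438 to 547), Rpl38 at 786 (333 to 495), Rplp1 at 1698 (647 to 1073), Rps12 at 1152 (506 to 667), Rps21 at 537 (261 to 366) and Rps28 at 791 (434 to 586).

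Among twins, the ipsilateral embryo 120 was the lowest of 7 in Rpl13 at 673 CPM (others 822 to 892) and Rpl14 at 508 (588 to 644). A contralateral pair, whose second twin had 728613 counts, was the highest of 6 in Rpl32 at 584 CPM (398 to 458) and Rps21 at 336 (195 to 226). Another ipsilateral pair had Rps18 at 367 CPM, against 192 to 238 in the other ipsilateral twin pairs. Rpl3l was counted in 2 twin pairs, an equatorial one at 0.37 CPM and an ipsilateral one at 0.84, and was at 0 in the others of their groups, so those marks rest on 3 counts.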

How the results depend on the processing

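Of 98 alternative values for counts of called members and summed shares, 91 stayed within 1.5 times the count or within 1 SD, and 7 moved. The 91 include comparisons in which no member was called under any setting, such as those between ICSI sites in blastocysts. Between ipsilateral and equatorial 2-cell embryos the 10 calls became 1 with the log2 total count as a covariate and 5 in embryos with at most 2% mitochondrial counts. Twin against intact blastocysts gave 30 calls instead of 80 with the log2 total count as a covariate, an alternative chosen after seeing the data. The embryo effect in blastomeres was called in 14 members without a filter on low counts, 3 with all complete pairs and 60 with limma-voom instead of 23. The 60 of 83 members with limma-voom stood beside 9119 of 11712 genes, a share below that of all genes. In twins limma-voom called 17 of 82 members instead of 6, beside 1803 of 9773 genes, so both shares were close. The cause was not tested. For named members 351 of 381 values kept direction and call, 25 lost the call, 4 gained one and 1 changed sign, Rpl10l between stages at -0.0092 without the plate term, not called either way.

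Over all genes, contralateral against equatorial embryos gave 1756 calls, 3930 without the low-count filter and 1104 with at most 2% mitochondrial counts. Ipsilateral against equatorial gave 870, against 2603, 183 (total as covariate) and 1543 (permuted rank-sum test). Contralateral against ipsilateral gave 0 and, without the filter, 1577, none a member. Twin against intact gave 3975, 6385 without the filter and 2535 with the covariate, and the stages 9790, 15441 and 5634 (thinned). DESeq2 called 9, 1 and 1 genes between sites in twins and 1 between contralateral and equatorial intact blastocysts, against 0 by edgeR, and 1 was called between ipsilateral and equatorial twins without the filter. The embryo effect gave 1263, 4195, 374 and 9119 genes in blastomeres in the order above, and 89, 927 (no filter) and 1803 (limma-voom) in twins. No paired analysis was possible because each embryo has its own number and belongs to a single group. Low counts limit Rpl3l most, with 5 counts over all intact blastocysts.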
